A study of Mus musculus with 12 samples.

Results

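Primordial germ cells (PGCs) are the embryonic precursors of eggs and sperm. The selected regions are stretches of the mouse genome with low DNA methylation in PGCs at embryonic day 9.5 and more in embryonic stem cells. They were chosen on the methylation levels themselves. A region had to lie below 20% in both E9.5 PGC libraries, and the mean of the 4 stem cell libraries had to exceed the mean of the 2 E9.5 PGC libraries by at least 10 percentage points. Of 95959 autosomal regions other than repeats with a level in all 12 libraries, 57229 lay below 20% in both E9.5 PGC libraries, and 903 of these met the rule. The 903 regions fell into 635 loci, because parts of 1 gene and overlapping islands and shores share CpG sites. For 75 of the regions all 12 levels equalled those of another selected region.

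The assay was reduced representation bisulfite sequencing (RRBS), which reads methylation in fragments cut at CCGG by the enzyme MspI, in 6 groups of 2 libraries, all of C57BL6 strain. Female ESCs came from an embryonic stem cell line, and pESCs came from a parthenogenetic line, made from an egg that developed without fertilization. ESC-PGCLCs and pESC-PGCLCs were PGC-like cells made from these lines by 2 days of culture with bFGF, activin A and KSR towards epiblast-like cells, followed by 4 days with BMP4, SCF, EGF and LIF. The lines used to make PGCLCs carried a β-Actin-GFP transgene. Female PGCs of E9.5 and E12.5 were sorted from embryos with antibodies to CD61 and SSEA1 together or to SSEA1 alone, and the PGCLCs with both. The stem cell lines were kept on fibroblast feeder cells, and whether the sequenced stem cells came from serum or from inhibitor medium was not stated. The study calls the libraries of a group biological replicates, and neither it nor the labels say whether these were separate cultures or embryos, so the p-values below measure the spread between these libraries.

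CpG islands are short stretches rich in CpG, and most stay free of methylation in every tissue. Many lie at the starts of genes, and those at developmental regulator genes are kept silent in stem cells and germ cells mainly by Polycomb proteins. Shores are the flanks of islands, with fewer CpGs and more variable methylation. PGCs lose most of the methylation of their genome on the way to the gonad.

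The sequences of 4 selected islands show the CpG-rich end of the set. The CpG sites, which are the positions that can be methylated, are in capitals, and each stretch is the plus strand of GRCm38 (mm10). The island nearest Tbx5 (chr5:119796528-119796827 of an island at chr5:119796511-119796843, intergenic, 35825 bases from the Tbx5 start) and the island in Lhx9 (chr1:138841635-138841934 of chr1:138841499-138842069, overlapping an exon) were the 2 islands with the largest gap between stem cells and E9.5 PGCs. The Barhl1 island (chr2:28911902-28912165, intronic) belongs to a locus with 8 selected regions. The island on chromosome 14 (chr14:89898480-89898779 of chr14:89898191-89899068, overlapping an exon of a predicted gene) was methylated unevenly in all groups but E9.5 PGCs. It read 43.0% and 13.8% in ESCs, 29.4% and 10.3% in pESCs, 7.14% and 0% in E9.5 PGCs, 10% and 33.3% at E12.5, and 22.4% to 34.2% in PGCLCs.
Tbx5 island: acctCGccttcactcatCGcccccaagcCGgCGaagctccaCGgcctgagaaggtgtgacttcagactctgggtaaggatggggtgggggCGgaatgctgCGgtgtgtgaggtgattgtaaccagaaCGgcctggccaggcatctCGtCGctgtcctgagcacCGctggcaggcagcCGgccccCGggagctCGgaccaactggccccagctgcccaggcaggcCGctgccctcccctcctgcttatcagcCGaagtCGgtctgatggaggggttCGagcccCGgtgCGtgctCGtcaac
Lhx9 island: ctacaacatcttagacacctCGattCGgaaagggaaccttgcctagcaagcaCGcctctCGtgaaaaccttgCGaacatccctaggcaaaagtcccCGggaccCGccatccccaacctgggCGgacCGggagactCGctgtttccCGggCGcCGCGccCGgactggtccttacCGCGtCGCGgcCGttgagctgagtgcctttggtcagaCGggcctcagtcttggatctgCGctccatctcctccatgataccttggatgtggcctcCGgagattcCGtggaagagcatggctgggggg
Barhl1 island: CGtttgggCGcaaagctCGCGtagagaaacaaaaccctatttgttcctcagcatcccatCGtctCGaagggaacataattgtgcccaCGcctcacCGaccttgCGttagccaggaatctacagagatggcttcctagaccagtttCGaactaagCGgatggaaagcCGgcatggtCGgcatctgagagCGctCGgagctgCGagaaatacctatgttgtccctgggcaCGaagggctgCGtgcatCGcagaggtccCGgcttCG
Chromosome 14 island: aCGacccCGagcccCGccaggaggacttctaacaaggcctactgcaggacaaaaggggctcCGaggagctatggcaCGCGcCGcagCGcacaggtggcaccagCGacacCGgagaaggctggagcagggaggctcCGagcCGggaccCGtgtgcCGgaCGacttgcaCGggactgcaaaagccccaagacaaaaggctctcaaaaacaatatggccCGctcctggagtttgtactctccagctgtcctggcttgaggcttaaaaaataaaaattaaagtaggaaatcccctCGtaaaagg

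The 250 bases before the RefSeq start of 3 genes with a selected promoter show how far CpG content varied. Klhdc2 (chr12:69296431-69296680, plus strand) and Srp9 (chr1:182124487-182124736, plus strand) each held 13 CpG sites here, and Cyp2c38 (chr19:39463076-39463325, minus strand) held 0. The authors' promoter windows were not given in the sources used here, so the sites behind the Cyp2c38 level lay outside this stretch. These sequences are shown because Klhdc2 and Srp9, with stem cell means of 55.1% and 55.7%, differed in PGCLCs, and because Cyp2c38, with 76.2%, had the widest gap to E9.5 PGCs of all selected regions with a named gene.
Klhdc2 promoter: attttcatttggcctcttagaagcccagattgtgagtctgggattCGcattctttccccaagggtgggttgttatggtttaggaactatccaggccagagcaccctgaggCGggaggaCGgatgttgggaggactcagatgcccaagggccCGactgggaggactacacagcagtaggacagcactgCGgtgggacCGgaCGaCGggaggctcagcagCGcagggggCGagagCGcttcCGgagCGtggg
Srp9 promoter: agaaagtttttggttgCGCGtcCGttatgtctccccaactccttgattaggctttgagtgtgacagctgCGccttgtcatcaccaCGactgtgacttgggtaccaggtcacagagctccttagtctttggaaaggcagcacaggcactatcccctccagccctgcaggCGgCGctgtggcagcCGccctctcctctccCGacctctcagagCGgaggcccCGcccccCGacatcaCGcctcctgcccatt
Cyp2c38 promoter: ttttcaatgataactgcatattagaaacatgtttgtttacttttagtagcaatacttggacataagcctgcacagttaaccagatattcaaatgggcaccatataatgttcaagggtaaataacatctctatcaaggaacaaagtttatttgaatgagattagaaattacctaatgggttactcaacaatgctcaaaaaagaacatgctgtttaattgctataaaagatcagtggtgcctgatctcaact

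Each library gave a level for 144375 to 166476 regions, the read depth behind a level was not in the files, and no interval for a single library can be given. Over all autosomal regions, E9.5 PGCs were the most methylated group, at 26.0% ± 0.189 (SD, n = 2), against 15.5% ± 2.29 in ESCs and 15.6% ± 0.353 in pESCs. The selected regions ran the other way by construction. Promoters of germ cell and pluripotency genes were read in each group, and their levels do not settle the labels. The Dazl, Pou5f1 and Sycp3 promoters averaged 65.8% ± 0.278, 24.7% ± 0.0570 and 57.4% ± 0.389 (SD, n = 2) in E9.5 PGCs. In ESCs these averaged 25.9% ± 19.6, 2.80% ± 0.185 and 21.5% ± 0.137. None of the 8 promoters with a level in all 12 libraries was selected. Those of Dazl, Ddx4, Dppa3, Pou5f1, Sycp3 and Zfp42 averaged above 20% in E9.5 PGCs, so the rule excluded them. Only those of Sox2 and Tfap2c were open to selection. The promoters of Prdm1, Prdm14 and Nanos3 lacked a level in some libraries and could not be selected either. The Dppa3, Ddx4 and Zfp42 promoters stood at 68.5% ± 1.95, 72.6% ± 0.392 and 64.6% ± 1.16 (SD, n = 2) in E9.5 PGCs. At E12.5 these were 33.7% ± 1.83, 46.3% ± 0.152 and 30.8% ± 0.144. In ESCs they were 3.08% ± 0.752, 11.5% ± 2.19 and 2.22% ± 0.510, and the Sox2 and Tfap2c promoters lay under 3% in every group mean. Methylation alone does not identify a cell type.

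Replicate libraries of the stem cells stood apart. Over the selected regions ESC replicate 1 averaged 30.2% and ESC replicate 2 averaged 20.7%, and replicate 1 was the higher of the 2 in 761 of 903 regions. The pESC libraries averaged 28.5% and 25%. The rule gave 847 regions without ESC replicate 1 and 1041 without ESC replicate 2. All 4 stem cell libraries lay above both E9.5 PGC libraries in 857 of the 903 regions, where 3.58% of all regions did so, and the rule used that contrast.

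In the stem cells the selected regions averaged 25.5% ± 6.72 in ESCs and 26.8% ± 2.41 in pESCs (SD over 2 libraries). The E9.5 PGCs averaged 6.40% ± 0.0471, the E12.5 PGCs 5.04% ± 0.135, the ESC-PGCLCs 9.85% ± 0.182 and the pESC-PGCLCs 10.7% ± 0.526. On these means PGCLCs sat between the stem cells and the PGCs of either age. The rule itself placed stem cells above E9.5 PGCs, so a position between them is no test of PGCLCs. Across all autosomal regions other than repeats, ESC-PGCLCs averaged 20.5% ± 0.137 and pESC-PGCLCs 18.9% ± 0.209 (SD over 2 libraries). There the PGCLC means lay above both stem cell means and below the E9.5 PGC mean. The 56326 other regions below 20% in both E9.5 PGC libraries averaged between 2.98% and 3.81% in all 6 groups. Most selected regions were partly methylated in stem cells, with a stem cell mean under 20% in 308 regions, of at least 40% in 91 and of at least 50% in 31.

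**Figure D1:**
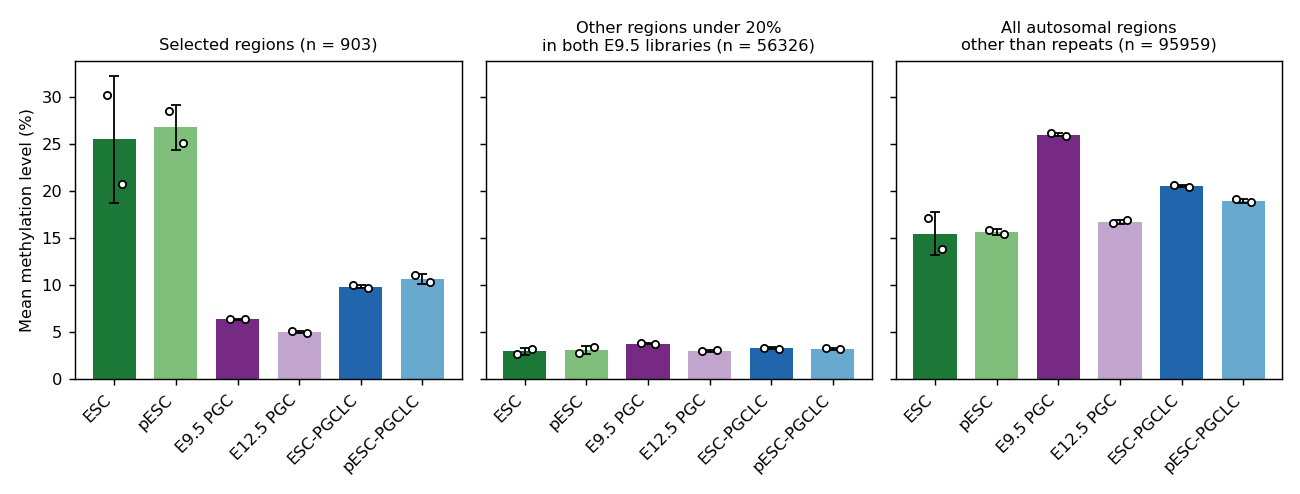
Mean methylation level (%) of the selected regions, of the other regions below 20% in both E9.5 libraries, and of all autosomal regions other than repeats; bars are means of 2 libraries, error bars SD and circles single libraries. The selected regions averaged 25.5% and 26.8% in the stem cells, 9.85% and 10.7% in the PGCLCs and 6.40% and 5.04% in the PGCs.

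The threshold values were close on both sides. Just inside the difference limit lay the Lipa 5' UTR with 10.0039 points and the Lrrc43 island with 10.0057. Just outside lay shores nearest Parp8 (9.9967 points) and Mcee (9.99332), and the Insc 5' UTR (9.92127). At the E9.5 limit, the higher E9.5 library read 19.9% at the Ereg promoter, 19.8% at the M1ap 3' UTR and 19.8% at the Minar2 5' UTR. Shores nearest Hoxb1, Pitx1 and Trim43b had 1 library at 20% and were left out.

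Shores, introns and exons made up most of the set. It held 308 shores, 185 introns, 174 exons, 135 promoters, 44 5' UTRs, 30 islands and 27 3' UTRs. Of the regions of each kind that were below 20% in both E9.5 libraries, 5.49% of 3' UTRs, 3.53% of introns and 3.34% of shores were selected. The share was 2.00% for exons, 1.17% for promoters, 0.460% for 5' UTRs and 0.241% for islands. By chromosome, the share ran from 0.993% on chromosome 3 to 2.30% on chromosome 14, and chromosome 2 held the most selected regions, 112.

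Selected islands were short. Their median length was 294.5 bases against 638 bases for islands below 20% in both E9.5 libraries that were not selected, their median GC content 64.3% against 69.0%, and they held 8.35 CpG sites per 100 bases against 10.3. Their median distance to the nearest start of a protein-coding gene was 2831 bases, where the median of the other low islands was 0. Shores differed less, with 2.05 CpG sites per 100 bases against 1.75. The 300 bases around the start of genes with a selected promoter held 3.33 CpG sites per 100 bases, against 7.0 for the other low promoters. These comparisons are descriptions with no test.

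A few motifs were searched on both strands in the central 300 bases of islands and shores and in 300 bases around gene starts. Shorter islands were searched whole. The median length was 294.5 bases for selected islands and 617 for all islands, so many selected islands offered less sequence. With 30 selected islands, low shares of rare motifs say little. The motif CACGTG was found in 0 of 30 selected islands and in 7.68% of all islands. The motif TGCCGC was found in 6 of 30 against 32.7%, and the motif TTCCCGC in 3.33% against 10.5%. In shores TGCCGC ran the other way, in 6.49% of the selected against 5.06% of all. The MspI site CCGG was in 45.8% of the selected shores and 37.5% of all shores, but in 64.4% of the starts of genes with a selected promoter against 76.0% of all starts. A match gives letters in a window and not a bound site.

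Genes for developmental transcription factors recurred among the selected regions. Of the regions below 20% in both E9.5 libraries whose nearest or own gene belonged to 8 such families, 7.83% were selected (199 regions), where 1.58% were selected over all genes. The families were listed after the values had been seen, so the shares are descriptions. The share was 14% for GATA factors (7 regions, at Gata2, Gata4 and Gata6), 13.4% for T-box factors (16 regions) and 8.35% for homeobox genes outside the Hox clusters (106 regions). It was 8.25% for Hox genes (25 regions), 6.80% for bHLH factors (21 regions), 3.45% for forkhead factors (8 regions), 9.52% for Zic, Gli and Prdm factors (14 regions) and 1.8% for Sox factors (2 regions). The 199 regions averaged 25.9% ± 8.45 in the ESC libraries, 26.1% ± 2.25 in the pESC libraries, 5.79% ± 0.0970 at E9.5 and 4.83% ± 0.0375 at E12.5. They averaged 9.17% ± 0.0920 in the ESC-PGCLC libraries and 10.4% ± 0.332 in the pESC-PGCLC libraries, beside 10% ± 0.208 and 10.8% ± 0.580 in the other 704 selected regions.

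**Figure D2:**
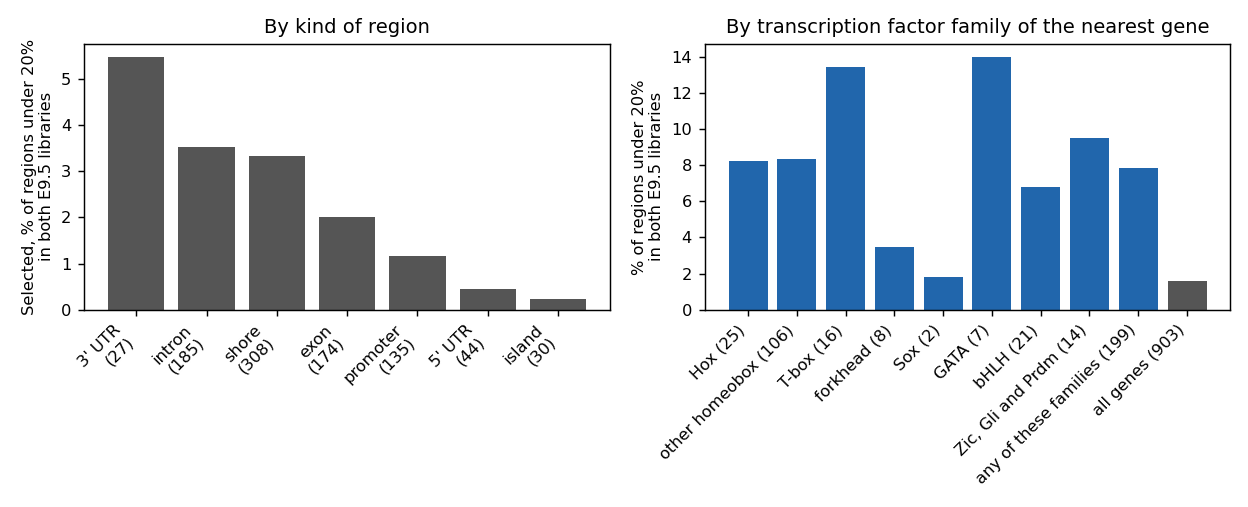
Selected regions as a share (%) of the regions below 20% in both E9.5 libraries, by kind of region on the left and by transcription factor family of the own or nearest gene on the right; numbers of selected regions are in brackets. Shares ran from 0.241% of islands to 5.49% of 3' UTRs, and reached 14% for GATA factors against 1.58% over all genes.

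Lhx9, a LIM homeobox factor needed for the gonads to form, had 6 selected regions. A shore at chr1:138839497-138841497 read 76.6% and 67.1% in the ESC libraries and 76.2% and 70.0% in the pESC libraries, with the E9.5 PGC libraries at 6.22% and 2.27% and those of E12.5 at 2.61% and 3.33%. It read 30.7% and 22.3% in the ESC-PGCLC libraries and 41.2% and 35.4% in the pESC-PGCLC libraries, so all 4 PGCLC libraries lay between the PGCs and the stem cells. The Lhx9 island printed above read 69.9% and 33.5% in ESCs and 59.1% and 39.2% in pESCs. The E9.5 PGC libraries read 2.56% and 2.19% and those of E12.5 1.90% and 2.66%, with 11.1% and 12% in the ESC-PGCLC libraries and 8.26% and 12.4% in the pESC-PGCLC libraries. The 2 ESC libraries of this island differed more than the 2 pESC libraries did.

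The island nearest Tbx5, a T-box factor of heart and forelimb, read 68.6% and 42.0% in ESCs and 60.4% and 52.8% in pESCs. In E9.5 PGCs it read 5.17% and 3.76%, and in E12.5 PGCs 3.59% and 3.31%. In ESC-PGCLCs it read 23.6% and 24.5%, and in pESC-PGCLCs 26.3% and 19.9%, above every PGC library and below every stem cell library. Emx2, a homeobox factor of the urogenital ridge and forebrain, had 4 selected regions in 1 locus, and a further selected shore beyond the gene was nearest to it. Its 3' UTR read 73.9% and 43.2% in ESCs, 63.0% and 55.8% in pESCs, 10.7% and 11.1% in the ESC-PGCLC libraries and 27.1% and 23.1% in the pESC-PGCLC libraries, where the PGC libraries ran from 0.397% to 6.18%.

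Loci with the most selected regions were examined next. The Hoxd3 and Hoxd4 locus, part of a cluster that patterns the body axis, held 13 selected regions over chr2:74711927-74749623, some of them in a predicted gene that overlaps both. Its Hoxd4 intron read 43.7% and 31.8% in ESCs, 37.0% and 41.7% in pESCs, 3.96% and 5.0% in E12.5 PGCs, 8.94% and 9.80% in the ESC-PGCLC libraries and 14.6% and 14.3% in the pESC-PGCLC libraries. Barhl1, a homeobox factor of the nervous system, had 8 selected regions, led by a shore at 46.2% ± 6.21 in ESCs and 4.88% ± 0.739 in E12.5 PGCs (SD, n = 2). Helt, a bHLH factor of the midbrain, had 7, led by a shore at 39.8% ± 14.8 and 3.97% ± 0.124. Tcf21, a bHLH factor of mesoderm, and Zfp560, a zinc finger gene, had 6 each, as did a locus at Slc32a1, the vesicular transporter of inhibitory neurotransmitters. The Tcf21 shore read 40.8% and 29.9% in ESCs and 38.1% and 36.5% in pESCs, and its PGCLC libraries ran from 4.59% to 14.7%. The Zfp560 promoter read 45.6% and 15.9% in ESCs, and the ESC libraries were again far apart.

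Regions at Hoxc10 and Hoxb9 lay at lower levels in stem cells than the Hoxd4 intron. The Hoxc10 promoter read 33.9% and 24.3% in ESCs, 27.4% and 28.2% in pESCs, 4.89% to 5.95% in the 4 PGC libraries and 9.67% to 12.2% in the 4 PGCLC libraries. The Hoxb9 3' UTR read 34.3% and 24.8% in ESCs, 35.3% and 21.0% in pESCs, 7.50% to 8.77% in the PGC libraries and 14.8% to 18.2% in the PGCLC libraries. In both, the 3 kinds of cells did not overlap. A shore nearest Tmem33 (chr5:67228518-67230518, intergenic, 30047 bases from its start) was among the most methylated in stem cells, at 70.6% and 41.7% in ESCs and 66.3% and 51.5% in pESCs. It read 1.87% to 3.08% in the PGC libraries and 15.7% to 21.1% in the PGCLC libraries.

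Gene lists of known function were counted over gene parts below 20% in both E9.5 libraries, where 1.59% of all gene parts were selected. None was selected of 44 such parts of pluripotency genes, 24 of PGC specification genes, 23 of germline genes, 72 of epiblast and gastrulation genes, 48 of DNA methylation machinery genes and 36 of clustered protocadherins. At a share of 1.59% such short lists would hold few selected parts, so these absences say little. Islands and shores were outside this count. Selected ones lay nearest, among others, to Fgf8, Lhx1, Pax6 and Wnt3a of the gastrulation list and to Igf2 of the imprinted list. Others lay nearest to Gata2, Gata4, Gata6, Hand1 and Tfap2a of the trophoblast and primitive endoderm list. Of Hox genes 14 of 135 parts were selected, and of mesenchymal and gonadal somatic genes 6 of 41, from Emx2, Lhx9 and Col1a1, the gene of a type I collagen chain. The Col1a1 5' UTR read 62.3% and 23.7% in ESCs and 46.7% and 29.4% in pESCs, against 2.52% to 12.7% in all PGC and PGCLC libraries. Of imprinted genes 2 of 68 parts were selected, both of Inpp5f, a phosphoinositide phosphatase, whose 5' UTR averaged 19.9% ± 12.6 in ESCs and 3.17% ± 1.13 in ESC-PGCLCs. Of trophoblast and primitive endoderm genes 2 of 70 were selected, the promoters of Ets2, an ETS factor of trophoblast, and Krt18, a keratin. The Ets2 promoter read 20.6% and 11.1% in ESCs, 25.8% and 26.4% in pESCs and 1.35% to 2.54% in the other 8 libraries, and the Krt18 promoter was at 10.2% to 19.4% in those 8. Of the PGC specification genes only Prdm1, a repressor that starts the PGC programme, had the nearest coding gene start to a selected region. This shore (chr10:44456549-44458549), at 26.6% ± 12.9 in ESCs, lay 69952 bases from the annotated Prdm1 start. That distance runs to the start and not to the nearest part of the gene. Of Zfp genes 13 of 621 were selected, and of signalling genes 3 of 74, in Acvr1, Acvr2a and Bmpr1b, which encode receptors of activins and BMPs.

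**Figure D3:**
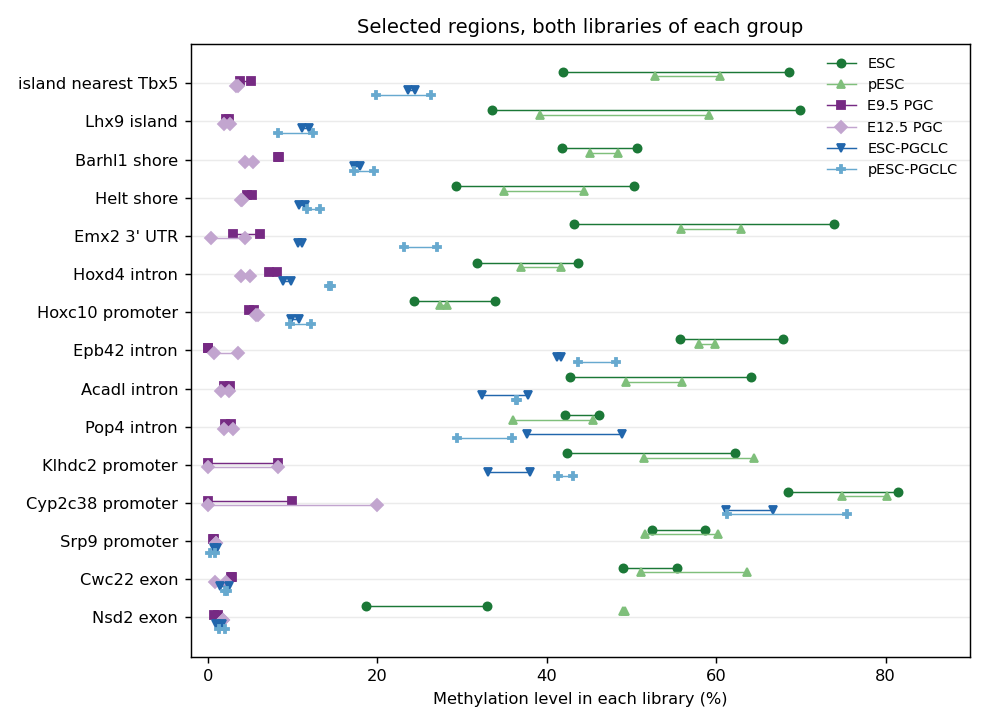
Methylation level (%) of 15 selected regions in each of the 12 libraries; markers joined by a line are the 2 libraries of a group. The upper 7 regions at developmental factors lie between PGC and stem cell levels in PGCLCs, the next 5 keep more in PGCLCs, such as the Cyp2c38 promoter at 63.9% and 68.4%, and the lowest 3 are at PGC levels in PGCLCs.

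Not all selected regions were at intermediate levels in PGCLCs. In PGCLCs 201 of the 903 regions averaged under 5%, 308 from 5% to under 10%, 328 from 10% to under 20%, 40 from 20% to under 30% and 26 at least 30%. The median PGCLC level rose with the stem cell level, from 5.02% in ESC-PGCLCs for regions under 20% in stem cells to 20.8% for those of at least 50%. Across the 903 regions the Pearson correlation of ESC and ESC-PGCLC levels was 0.652 and that of pESC and pESC-PGCLC levels 0.628. These regions share CpG sites and libraries, and the values are descriptions. All 4 PGCLC libraries lay below all 4 stem cell libraries in 765 regions (84.7%), against 4.14% of all regions, and the stem cell libraries were part of the rule.

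The Srp9 promoter contrasted with the intermediate regions. Srp9 encodes a subunit of the signal recognition particle. Its promoter read 58.6% and 52.5% in ESCs and 60.2% and 51.6% in pESCs, and between 0.251% and 1.14% in all 8 PGC and PGCLC libraries. A Cwc22 exon, in a gene for a splicing factor, read 55.4% and 48.9% in ESCs, 63.6% and 51.2% in pESCs, and between 0.857% and 2.92% in the other 8 libraries. Of the 259 regions with a stem cell mean of at least 30%, 23 regions at 21 loci averaged under 5% in PGCLCs. They also included exons of Nsd2, a histone methyltransferase, and of Myl12a and Myl12b, which encode myosin light chains. These 3 genes were named after their values were seen.

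Regions at the other end were methylated in PGCLCs as well as in stem cells. The epiblast-like cells between them were not measured, so whether methylation was kept or lost and regained was not tested. The Cyp2c38 promoter, of a cytochrome P450 gene, read 81.5% and 68.5% in ESCs, 80.2% and 74.8% in pESCs, 66.7% and 61.1% in the ESC-PGCLC libraries and 75.4% and 61.3% in the pESC-PGCLC libraries. Its PGC libraries read 0%, 10%, 20% and 0%, which are coarse values of unknown depth. An intron of Epb42, a red cell membrane protein, read 67.9% and 55.7% in ESCs, 59.9% and 57.9% in pESCs, 41.2% and 41.7% in the ESC-PGCLC libraries and 43.7% and 48.1% in the pESC-PGCLC libraries. Both E9.5 libraries were listed at 0 there, and the E12.5 libraries read 0.775% and 3.57%. The Klhdc2 promoter, of an adaptor of ubiquitin ligases, averaged 35.5% ± 3.52 in the ESC-PGCLC libraries and 42.3% ± 1.22 in the pESC-PGCLC libraries against 4.17% ± 5.89 in E12.5 PGCs.

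**Figure D4:**
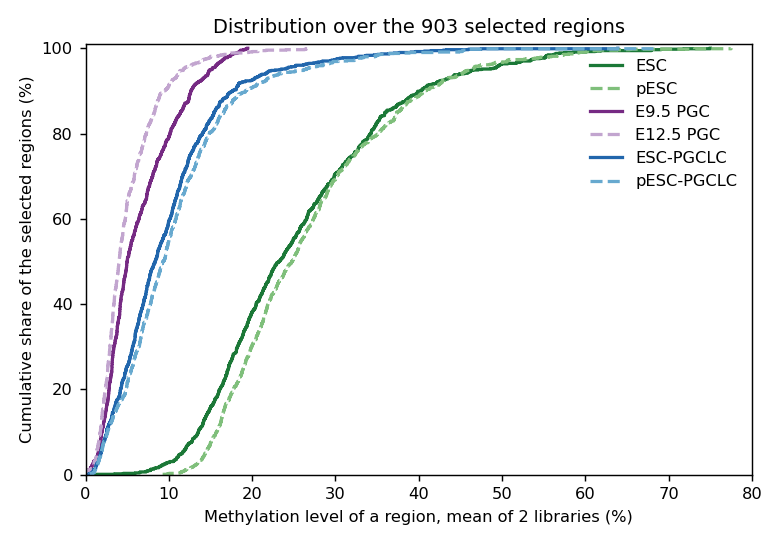
Cumulative share (%) of the 903 selected regions against the methylation level (%) of a region, with 1 line per group and each level a mean of 2 libraries. The median level was 3.95% in E12.5 PGCs, 5.03% in E9.5 PGCs, 8.20% in the ESC-PGCLC libraries and 9.11% in the pESC-PGCLC libraries, each the mean of 2 library medians, and the stem cell lines lie furthest to the right.

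The PGCLCs and E12.5 PGCs took no part in the choice of regions, so they could be compared with a test. The question was whether the selected regions differed in methylation between PGC-like cells made in culture and PGCs that had reached the gonad. A region was called when limma, run on log2 odds of the level in these 6 libraries over all 138361 regions measured in them, gave a Benjamini-Hochberg adjusted p under 0.05 and the means differed by at least 10 points. In ESC-PGCLCs 88 selected regions at 77 loci were called higher than in E12.5 PGCs and 4 lower, which is 9.75% and 0.443% of the 903. Over all regions tested 21.4% were called higher and 0.536% lower, so with the 10-point minimum the share of the selected regions lay below that of the whole table, whose median level was 20.6% and 21.3% in the E12.5 libraries. Without the minimum the order turned: 445 of the 903 selected regions passed the adjusted p as higher, against 30.4% of all regions. At an unadjusted p under 0.05, in either direction, stood 560 selected regions and 43.4% of all. Among the 56326 other regions low in E9.5 PGCs, 0.0728% were called higher and 0.0550% lower.

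In pESC-PGCLCs 100 selected regions at 91 loci, or 11.1%, were called higher than in E12.5 PGCs and 0 lower. Without the 10-point minimum 307 selected regions passed the adjusted p as higher, against 3.84% of all regions, and 3 as lower. An unadjusted p under 0.05, in either direction, was found for 620 selected regions and for 29% of all. Over all regions 3.24% were called higher and 0.155% lower, and of the other regions low in E9.5 PGCs 0.0213% were called higher. The comparisons share their E12.5 libraries. The median difference over the selected regions was 3.75 points for ESC-PGCLCs, against 2.97 over all regions, and 4.31 points for pESC-PGCLCs, against 1.30. All 4 PGCLC libraries lay above both E12.5 libraries in 608 of 903 regions (67.3%), where 41.9% of all regions and 14.2% of the other regions low in E9.5 PGCs did so.

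The number of calls depended on the libraries. Without ESC-PGCLC replicate 2 most calls in ESC-PGCLCs were lost, over all regions as well as among the selected ones. In pESC-PGCLCs leaving out any of the 6 libraries left hardly any call, again over all regions too. Such fits leave 1 library in a group, so their counts are not given. The median of all regions was 0.46 higher on the log2 odds scale in ESC-PGCLCs and 0.32 higher in pESC-PGCLCs than in E12.5 PGCs. Relative to that shift 56 selected regions were called higher in ESC-PGCLCs, with 2.27% of all regions, and 51 in pESC-PGCLCs, with 0.228% of all regions.

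**Figure D5:**
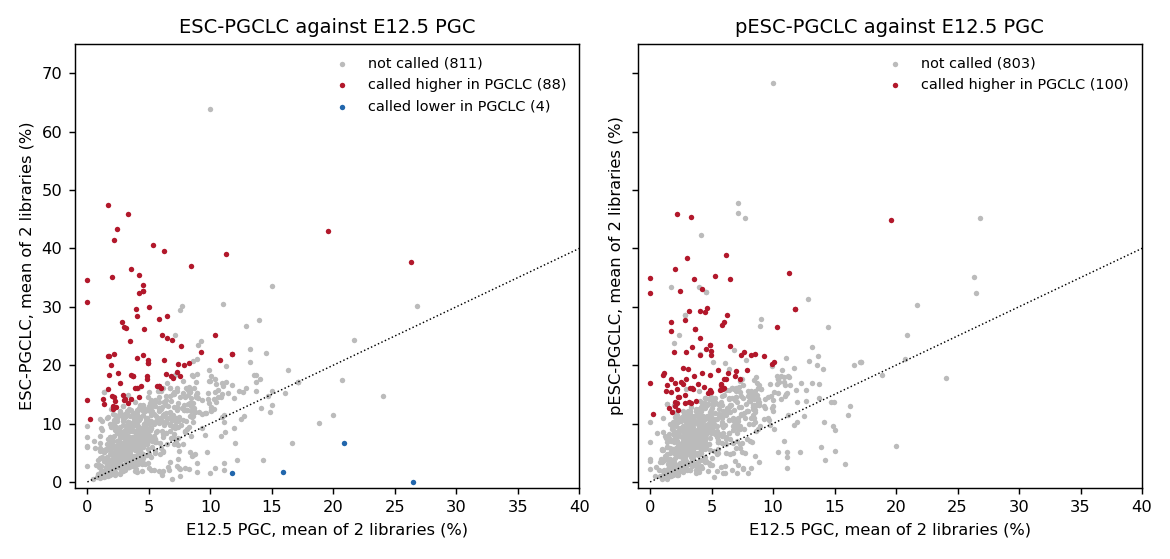
Methylation level (%) of each selected region in ESC-PGCLCs (left) and pESC-PGCLCs (right) against E12.5 PGCs, as means of 2 libraries; red points were called higher in PGCLCs, blue points lower, and the dotted line marks equal levels. Calls numbered 88 higher and 4 lower on the left and 100 higher and 0 lower on the right.

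The called regions with the widest gaps lay mostly in introns. Of the 185 selected introns 18.9% were called higher in ESC-PGCLCs, where 27.5% of all autosomal introns were. The share was 3.45% of the selected exons against 20.3% of all exons, 7.79% of the shores against 10.8% and 11.9% of the promoters against 12.8%. In pESC-PGCLCs it was 18.9% of the selected introns against 4.28% of all introns, 6.32% of the exons against 2.78%, 10.1% of the shores against 1.76% and 10.4% of the promoters against 2.42%. The Epb42 intron exceeded its E12.5 PGC mean by 39.3 points in ESC-PGCLCs (log2 odds difference 4.63 ± 0.46 SE, adjusted p = 0.00902, limma) and by 43.7 points in pESC-PGCLCs (adjusted p = 0.0288). An intron of Pop4, a subunit of RNase P, read 37.7% and 48.9% in ESC-PGCLCs, 29.4% and 36.0% in pESC-PGCLCs and 2.94% and 1.88% in E12.5 PGCs. Its differences were 40.9 points (adjusted p = 0.00670) and 30.3 points (adjusted p = 0.0209), and the groups did not overlap. An intron of Acadl, an acyl-CoA dehydrogenase of fatty acid oxidation, read 37.7% and 32.3%, then 36.4% and 36.6%, against 2.48% and 1.54%. Its differences were 33.0 points (adjusted p = 0.00606) and 34.4 points (adjusted p = 0.0178).

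Further called regions were a B3galt5 5' UTR, of a galactosyltransferase gene, at 40.7% ± 3.15 in ESC-PGCLCs and 5.32% ± 1.79 in E12.5 PGCs, and an Fdxacb1 intron at 36.4% ± 1.49 and 3.56% ± 1.11 (SD, n = 2). A Ptprq intron, of a receptor phosphatase of hair cells, read 43.6% and 18.2% in the ESC-PGCLC libraries and 46.9% and 23.1% in the pESC-PGCLC libraries, with both E12.5 libraries listed at 0. The replicates of the Ptprq intron differed by more than 20 points in each PGCLC group. A shore on chromosome 14 next to the island printed above (chr14:89899068-89901069) read 38.7% and 56.2% in ESC-PGCLCs against 0% and 3.33% in E12.5 PGCs (adjusted p = 0.0130). In pESC-PGCLCs it read 41.5% and 25.4% and was not called (adjusted p = 0.0526).

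Among the developmental factors 11 of 199 regions were called higher in ESC-PGCLCs. This was a smaller share than the 9.75% of all selected regions and the 21.4% of all regions. In pESC-PGCLCs 14 of the 199 were called, a smaller share than the 11.1% of all selected regions and a larger one than the 3.24% of all regions. The Lhx9 shore was 23.5 points higher in ESC-PGCLCs (log2 odds difference 3.18 ± 0.26 SE, adjusted p = 0.00797) and 35.3 points higher in pESC-PGCLCs (adjusted p = 0.0196). The island nearest Tbx5 was 20.6 points (adjusted p = 0.00673) and 19.7 points higher (adjusted p = 0.0200). A shore in Emx2 (chr19:59459984-59461985) read 9.84% and 11.1% in the ESC-PGCLC libraries and 19.4% and 18% in the pESC-PGCLC libraries, where E12.5 PGCs read 0.993% and 1.33%. It was called in pESC-PGCLCs (17.6 points, adjusted p = 0.0150) and fell short of the 10-point minimum in ESC-PGCLCs (9.29 points). The Barhl1 shore was 12.7 points (adjusted p = 0.00777) and 13.5 points higher (adjusted p = 0.0207). The Lhx9 island, the Helt shore and the Hoxd4 intron passed the adjusted p but not the 10-point minimum, with differences of 4.89 to 9.97 points. Of the signalling list, the Acvr1 exon was called in both, at 28.4% in both ESC-PGCLC libraries against 4.63% and 8.34% in E12.5 PGCs. Its stem cell libraries split by replicate number, at 12.3% and 58.3% in ESCs and 19.6% and 54.5% in pESCs.

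Cyp2c38 had the widest gaps of the named promoters and was not called. Its differences from E12.5 PGCs were 53.9 points in ESC-PGCLCs (adjusted p = 0.0587, limma) and 58.4 points in pESC-PGCLCs (adjusted p = 0.0959), with E12.5 libraries at 20% and 0%. The Klhdc2 promoter was called in ESC-PGCLCs, 31.3 points higher (adjusted p = 0.0402), and not in pESC-PGCLCs (38.1 points, adjusted p = 0.0719). The Srp9 promoter differed by -0.0662 points (adjusted p = 0.878) and -0.457 points (adjusted p = 0.30).

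The 4 regions called lower in ESC-PGCLCs lay at 3 loci. At the Hoxd3 3' UTR both ESC-PGCLC libraries were listed at 0, while E12.5 PGCs read 29.7% and 23.3% (adjusted p = 0.00716) and pESC-PGCLCs 40.2% and 24.3%. A shore that overlaps it (chr2:74747291-74749292) read 6.20% and 7.02% in ESC-PGCLCs, 23.6% and 18.2% in E12.5 PGCs (adjusted p = 0.0190) and 31.0% and 19.3% in pESC-PGCLCs. The stem cell libraries of the Hoxd3 3' UTR read 43.9% to 60.7%. An exon of Lrrk2, a kinase, read 1.68% and 1.59% in ESC-PGCLCs against 21.0% and 10.8% (adjusted p = 0.0330). The promoter of Ptprz1, a receptor phosphatase of glia, read 1.08% and 2.09% against 14.7% and 8.77% (adjusted p = 0.0121).

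A few selected regions were methylated in E12.5 PGCs. Both E12.5 libraries lay below 20% in 885 of 903 regions, and 8 regions averaged at least 20%. A Kcnj16 intron, of a potassium channel gene, read 4.26% and 5.56% at E9.5, 25.6% and 27.0% at E12.5, 34.1% and 41.2% in the ESC-PGCLC libraries and 32.7% and 37.3% in the pESC-PGCLC libraries. A Dph6 intron, of a diphthamide synthesis gene, read 2.11% and 5.83% in the E9.5 libraries and 21.1% and 18.1% in those of E12.5, and averaged 42.9% ± 0.0111 in the ESC-PGCLC libraries and 44.8% ± 0.807 in the pESC-PGCLC libraries. The median difference between E12.5 and E9.5 PGCs was -0.992 points over the selected regions and -1.80 points over all autosomal regions, with no test because E9.5 PGCs were part of the rule.

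The parthenogenetic origin of the PGCLCs was compared within the same test. No selected region was called between pESC-PGCLCs and ESC-PGCLCs by limma, 110 of 903 had an unadjusted p under 0.05, as 16.7% of all regions did, and no other tool was run. Over all regions 0.0282% were called higher and 0.00723% lower in pESC-PGCLCs. The median difference was 0.622 points over the selected regions and -0.952 points over all regions. The means lay at least 10 points apart in 27 regions, 17 with pESC-PGCLCs higher. The smallest adjusted p was that of the Hoxd3 3' UTR, 32.3 points higher in pESC-PGCLCs (adjusted p = 0.0517), with the values given above. An intron of Slf1, a DNA repair factor named after its values were seen, read 24.1% and 19.3% in pESC-PGCLCs and 4.62% and 6.66% in ESC-PGCLCs (adjusted p = 0.124).

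In the stem cells themselves the groups were described without a test. Both pESC libraries lay above both ESC libraries in 123 regions (13.6%), where 8.95% of all regions did so, and below both in 14 (1.55%), where 6.13% did so. The gap between means was at least 10 points in 46 of the 123 and in 0 of the 14. The median difference was 0.558 points, where the ESC libraries averaged 30.2% and 20.7%. The 5' UTR of Psmd11, a proteasome subunit gene, read 39.9% and 25.4% in pESCs and 5.73% and 3.33% in ESCs, and at most 3.0% in the other 8 libraries. The promoter of Phyh, a peroxisomal enzyme gene, read 49.7% and 29.5% in pESCs and 9.88% and 15.9% in ESCs, and at most 2.69% elsewhere. Psmd11 and Phyh were named after their values were seen.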

How the data were processed

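RRBS levels were analysed for 12 libraries, 2 per group. The authors aligned reads to mm10 with Bismark 0.16.3 and Bowtie2 and deposited, for each library, a fraction of methylated CpG calls (mCG/CG) per island, shore, gene part or repeat, without coverage, so the depth of a level is unknown. Levels are printed as percentages. The regions, gene lists and comparisons were chosen with earlier results of these data known. Every one of 13361 islands began and ended with CG when its deposited start was counted from 0 on GRCm38, so 1 was added to island starts; shore positions are as deposited. Of 30073 gene identifiers 99.9% were found in GENCODE, whose gene positions are given for gene parts. Sequences came from RefSeq GRCm38.p6, and the symbols of selected promoters were matched to its promoter table (78 of 135 matched).

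limma 3.58.1 (R 4.3.3) was fitted to log2((level + 0.01)/(1 - level + 0.01)) in E12.5 PGCs and both PGCLC groups. The fit was tested on simulated data. For pESC-PGCLC against ESC-PGCLC, with 20000 regions, it recovered 148 of 200 regions shifted by 2 log2 odds units and 184 of 200 shifted by 4, with 7 false calls each. Regions with a mean level under 5% were not among those shifted, and spreads were shuffled between regions. The recovery need not hold for the selected regions, of which 201 averaged under 5% in PGCLCs and 577 in E12.5 PGCs. Named regions were, leaving out predicted genes, the 12 loci with the largest stem cell gap, the 6 with the highest PGCLC and E12.5 means, up to 6 called per direction and comparison, the 6 with most regions, those in gene lists, and those at the thresholds. Alternatives changed the offset, scale, libraries, regions, centring, minimum difference, replicate block and rule. Replicate numbers were not used as pairs, because no source pairs them.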

Additional observations from a re-analysis of the deposited data

How the results depend on the processing

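Depth is unknown, and 2 libraries a group leave the counts of calls loosely set. For ESC-PGCLCs against E12.5 PGCs (92 selected regions called), centring on library medians gave 59, no minimum difference 465, a 20-point minimum 29 and an E9.5 limit of 10% gave 47, and leaving out 1 library gave 24 to 99. The replicate block gave 94 selected and 27617 of all. For pESC-PGCLCs against E12.5 PGCs, 100 selected regions and 4692 of all were called. Centring gave 51 and 414, no minimum difference 310 and 5626, the 20-point minimum 28 and 991, and the E9.5 limit 58 of 652. Hardly any call was left without 1 library, and the replicate block gave 0 selected and 0 of all. The cause was not tested. Neither the labels nor the study say that replicate numbers pair libraries across groups. Same-numbered deviations correlated at 0.0572 between the PGCLC groups over all regions and 0.242 over the selected ones, at -0.0312 and -0.0459 between ESC-PGCLCs and E12.5 PGCs, at -0.0135 and 0.0484 between pESC-PGCLCs and E12.5 PGCs, and at 0.518 and 0.338 between ESCs and pESCs, which are outside the fit. For pESC-PGCLCs against ESC-PGCLCs, 0 selected regions and 49 of all were called. Adding E9.5 PGCs gave 1 selected and 130 of 137202, and all 12 libraries gave 2 and 85 of 133311. Autosomal regions other than repeats gave 1 and 37 of 97839, centring 1 and 60, and the replicate block 0 and 0. The fits with E9.5 PGCs added or with all 12 libraries take part of their spread from libraries that chose the regions. Their calls are therefore no independent support. The Hoxd3 3' UTR was among the calls with E9.5 PGCs added, with all 12 libraries, with autosomal regions and with centring.

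The rule gave 1890 regions with a 5-point gap and 326 with a 20-point gap, and 841 to 1047 without 1 of its libraries. The mean levels, in the order E12.5 PGCs, PGCLCs of ESCs and PGCLCs of pESCs, were 3.95%, 8.20% and 9.11% as medians over regions, 3.94%, 8.29% and 9.03% with an E9.5 limit of 10%, and 5.18%, 13.3% and 14.7% with a 20-point gap. Without a replicate they ran from 4.94% to 5.13%, 9.72% to 9.98% and 10.3% to 11.1%. Of the named regions, 32 called differences from E12.5 PGCs were refitted. None changed sign, but several refits use the same libraries and levels, so their sign was nearly fixed. The refit without a minimum difference could not lose a call. With the replicate block every named call in pESC-PGCLCs was lost and every one in ESC-PGCLCs was kept. When 1 library was left out, the named calls in pESC-PGCLCs were lost, and some of those in ESC-PGCLCs were too.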

Other observations

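On the X chromosome 4 of 2571 regions other than repeats met the same rule (0.156%, against 0.941% of autosomal regions). The highest in stem cells with a known gene was an exon of Clcn5, a chloride transporter, at 38.7% and 25.8% in ESCs and 39.4% and 42.4% in pESCs, with 13.8% and 11.6% in E9.5 PGCs and 5.03% to 9.40% in the PGCLC libraries. A Gria3 intron, of a glutamate receptor gene, read 30.5% and 20.9% in ESCs and 9.67% to 11.5% in PGCLCs.

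A further 245 autosomal regions were at least 10 points higher in stem cells than in E9.5 PGCs but had an E9.5 library at 20% or more. The ESC libraries averaged 48.3% ± 8.98, the pESC libraries 48.3% ± 3.37, the E9.5 PGCs 31.0% ± 0.724 and the E12.5 PGCs 20% ± 0.365 (SD, n = 2). The ESC-PGCLCs averaged 30.6% ± 0.316 and the pESC-PGCLCs 29.4% ± 1.17. The widest gap was at a shore nearest Trim43b, a gene of the tripartite motif family (chr9:89066900-89068901), which read 70.6% to 81.7% in stem cells, 20% and 16.7% in E9.5 PGCs, 8.08% and 11.3% in E12.5 PGCs and 46.6% to 53.5% in PGCLCs.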
